A study of Rattus norvegicus with 6 samples.

Results

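The genes described here carry out glucose synthesis and ammonia production in the kidney: Pck1, Pck2, Fbp1, G6pc, Pc, Glud1 and Slc38a3. They were chosen as all probe sets whose platform gene symbol is one of these names, which gave 8 of the 31099 probe sets on the array. These 8 probe sets cover 6 of the 7 genes, with 2 each for Pck2 and Glud1 and 1 each for Pck1, Fbp1, Pc and Slc38a3. G6pc has no probe set listed under its symbol alone, so it is described apart from the others. All 8 probe sets passed the filter on dim signals, a mean over all 6 arrays at or above the 40th percentile.

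The congenic rats had the Dahl S background and, by their strain name, a segment of R strain chromosome 9, and they were set against Dahl salt-sensitive (S) rats. By its title the series concerns a blood pressure locus narrowed to under 81.8 kb. All rats were males of 53 days kept on a 2% salt diet, so neither strain was studied on low salt. They were weaned at 30 days, and each cage held 1 rat of each strain. Each group had 3 RNA samples of kidney, each pooled from 2 rats and hybridised to 1 Affymetrix Rat 230 2.0 array. The spread between arrays therefore holds differences between pairs of rats and technical variation together.

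In the kidney, new glucose is made in the proximal tubule, mainly from lactate and glutamine. Slc38a3 brings glutamine into the cell from the blood side, mitochondrial enzymes, glutamate dehydrogenase among them, release its nitrogen as ammonium, and the remaining carbon reaches oxaloacetate, which Pck1 turns into phosphoenolpyruvate. The ammonium is excreted with acid, and in rats the genes of this route, Pck1 and Slc38a3 among them, are known to be induced in the kidney by metabolic acidosis. Fbp1 and G6pc catalyse the later steps that bypass glycolysis, and Pc makes oxaloacetate from pyruvate.

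RefSeq promoter sequences (rat assembly GRCr8) were found for 5 of the 7 genes (Pck1, Pck2, Fbp1, G6pc1 and Glud1). Those of both phosphoenolpyruvate carboxykinase genes are shown because their transcripts are set side by side in the results. Each runs from 250 bases before to 50 bases after the annotated start, 5′ to 3′ on the plus strand. Capitals mark matches, on either strand, to the core of the cyclic AMP response element (ACGTCA), to a TATA box (TATAAA or TATTTAA) or to the core of an insulin response sequence (TGTTTTG).
Pck1, chr3:182348322-182348621: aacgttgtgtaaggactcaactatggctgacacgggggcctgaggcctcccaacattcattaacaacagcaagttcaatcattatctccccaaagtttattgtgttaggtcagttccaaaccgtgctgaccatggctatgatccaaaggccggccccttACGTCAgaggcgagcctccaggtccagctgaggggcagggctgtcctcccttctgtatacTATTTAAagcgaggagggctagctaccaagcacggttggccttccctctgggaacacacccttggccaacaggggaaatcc
Pck2, chr15:32997603-32997902: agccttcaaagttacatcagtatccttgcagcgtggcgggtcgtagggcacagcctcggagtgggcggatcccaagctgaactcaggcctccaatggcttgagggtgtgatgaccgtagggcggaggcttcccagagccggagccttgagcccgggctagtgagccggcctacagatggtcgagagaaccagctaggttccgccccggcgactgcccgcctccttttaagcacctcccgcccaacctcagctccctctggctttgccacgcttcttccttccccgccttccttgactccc

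The Pck1 window held a cyclic AMP response core starting 91 bases before the annotated start and a TATA box starting 31 bases before it. The Pck2 window held none of these letters and was richer in G and C, at 62.7% against 53.3% for Pck1. Of the other promoters, that of G6pc1 had a TATA box starting 41 bases and an insulin response core starting 186 bases before the start, whereas those of Fbp1 and Glud1 had no match. Over all 33469 promoters of the table, 7.94% held the cyclic AMP response core, 17.6% a TATA box and 6.28% the insulin response core. The motifs are distinct and their matches in these promoters do not overlap. A match describes the letters only.

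None of the 8 probe sets differed between the strains past the threshold, an adjusted p under 0.05 in limma over 18625 tested probe sets (0 of 8, against a background of 0% of all tested). At an unadjusted p under 0.05 there were again 0 of the 8, where the background was 6.61% (3.1% higher and 3.52% lower in congenic kidneys). Fold changes are congenic over S on the log2(signal + 16) scale, and signals are linear MAS5 intensities, a summary of a probe set's matched and mismatched probes. Of the 8 probe sets 6 had a positive and 2 a negative log2 fold change. With each gene given by its brightest probe set, the median over the 6 genes was 0.028 on the log2 scale, beside -0.0036 over all tested probe sets. Its sign turned without S array 3 (-0.015) and without congenic array 2 (-0.0032).

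**Figure D1:**
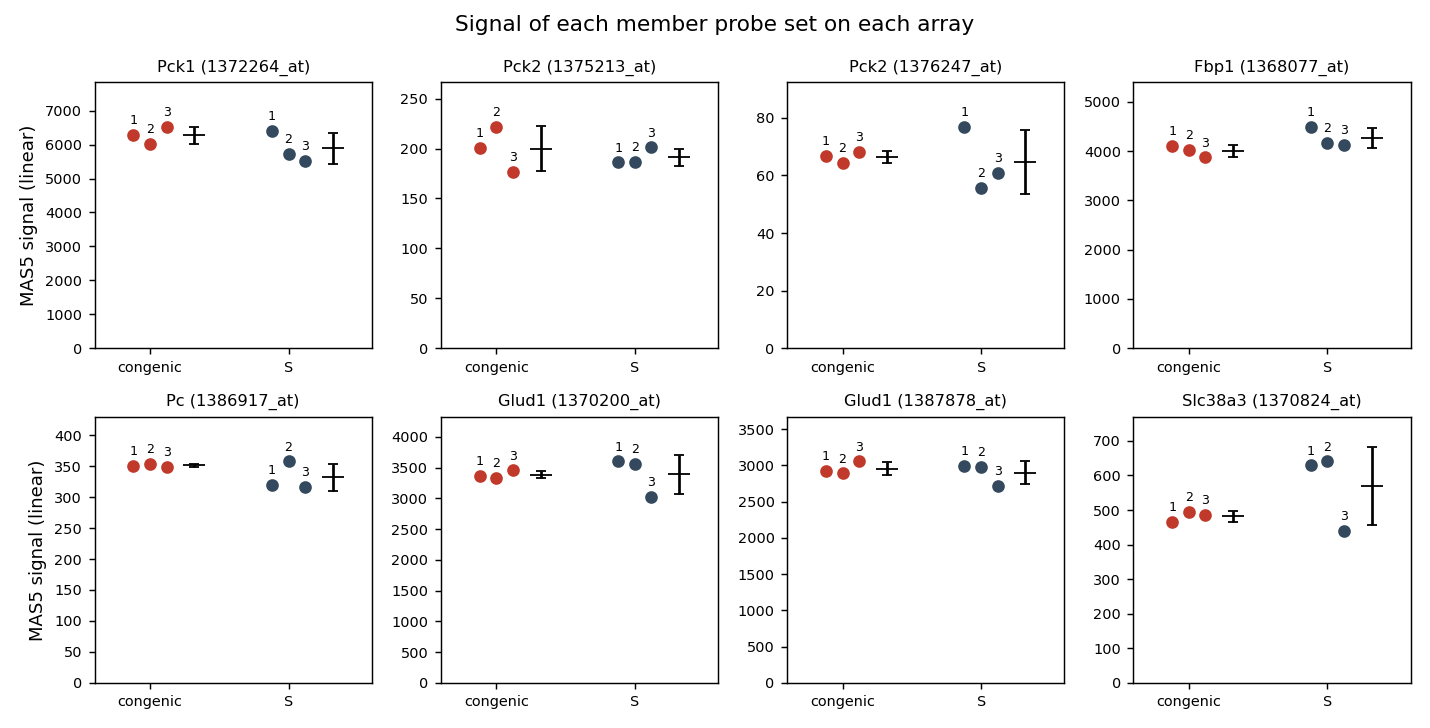
Linear MAS5 signal (vertical axes, from 0) of the 8 probe sets on each array, congenic left and S right, with the replicate number above each point and the mean ± SD (n = 3) beside each group. The groups overlap in every panel but that of Fbp1, and S replicate 3 is the lowest point for Pck1, Pc, both Glud1 probe sets and Slc38a3.

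Pck1, the cytosolic enzyme that commits oxaloacetate to glucose synthesis, was measured by probe set 1372264_at (gene on chromosome 3). Its signal was 6291, 6031 and 6532 on the congenic arrays 1 to 3, against 6414, 5726 and 5529.8 on the S arrays 1 to 3. The groups overlapped, as S array 1 lay above congenic arrays 1 and 2. The means were 6284.5 ± 251 in congenic and 5889.7 ± 464 in S kidneys (SD, n = 3 each), a difference of 0.096 ± 0.060 on the log2 scale (estimate ± SE, limma adjusted p = 0.794). The 95% interval of the ratio ran from 0.974 to 1.17. Pck1 lay at the 99.9th percentile of mean signal, and whether signals that high still follow the amount of RNA was not tested. Without S array 1 the log2 fold change was 0.16 (unadjusted p = 0.0126, adjusted p = 0.920), without S array 3 it was 0.052 (unadjusted p = 0.410), and with quantile normalization 0.048.

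Pck2, the mitochondrial form of the same enzyme, had 2 probe sets (chromosome 15). Probe set 1375213_at gave 201, 222 and 177 on the congenic arrays, against 186, 187 and 201 on the S arrays. Congenic arrays held both its highest and its lowest value, and the log2 fold change was 0.055 ± 0.093 (SE, adjusted p = 0.928 by limma). Probe set 1376247_at gave 66.8, 64.3 and 68.1 on the congenic arrays, against 77.0, 55.7 and 61.0 on the S arrays, where the S values lay on both sides of the congenic ones. Its log2 fold change was 0.041 ± 0.12 (SE, adjusted p = 0.961 by limma), and the ratio's 95% interval ran from 0.854 to 1.24. The more and the less bright probe set therefore both had small positive differences within the replicate spread. The pseudocount of 16 understates ratios most for the dim one.

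Pc, pyruvate carboxylase, feeds mitochondrial oxaloacetate from pyruvate. Probe set 1386917_at (chromosome 1) measured 350.0, 354 and 349 on the congenic arrays, against 320.3, 358 and 317 on the S arrays. The congenic values lay close together between S arrays 1 and 3 below and S array 2 above. The log2 fold change was 0.080 ± 0.071 (SE, adjusted p = 0.848 by limma), with a 95% interval of the ratio from 0.947 to 1.18. Without S array 2 it was 0.13, without S array 3 0.050 and with array weights 0.045.

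Fbp1, fructose-1,6-bisphosphatase, was the one gene of the set whose groups did not overlap. Probe set 1368077_at (chromosome 17) measured 4104, 4016 and 3869.9 on the congenic arrays, against 4496, 4162 and 4127 on the S arrays. Every congenic array lay below every S array, but the gap between congenic array 1 and S array 3 was smaller than the spread within either group. The means were 3997 ± 118 in congenic and 4261 ± 204 in S kidneys (SD, n = 3 each), a difference of -0.092 ± 0.051 on the log2 scale (estimate ± SE, limma adjusted p = 0.782, 95% interval of the ratio 0.868 to 1.01). One of 8 probe sets without overlap and lower in congenic kidneys stands beside 6.79% of all tested probe sets, and 0 of 8 without overlap and higher beside 5.71%. With quantile normalization Fbp1 had a log2 fold change of -0.13 (unadjusted p = 0.0216, adjusted p = 0.737), and without S array 1 it had -0.053 (unadjusted p = 0.315).

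**Figure D2:**
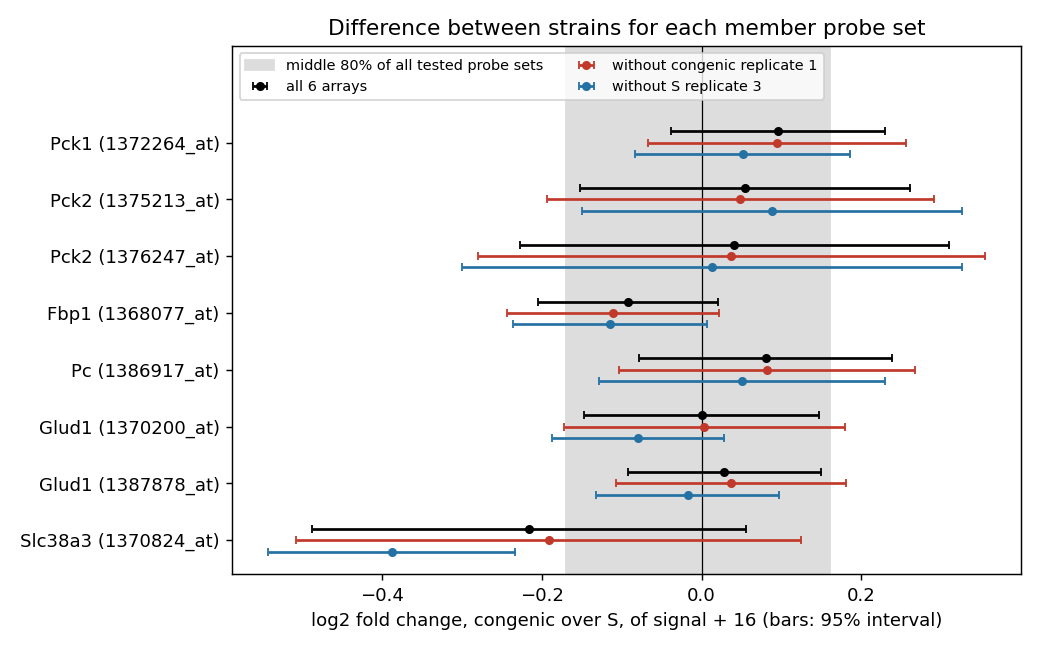
Log2 fold change of signal + 16, congenic over S, for the 8 probe sets (horizontal axis, bars are 95% intervals from limma), with all 6 arrays, without congenic replicate 1 and without S replicate 3; the grey band holds the middle 80% of all tested probe sets, -0.17 to 0.16. With all 6 arrays each interval includes 0, and Slc38a3 moves to -0.39 without S replicate 3.

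Glud1, glutamate dehydrogenase, releases ammonium from glutamate in the mitochondrion and had 2 probe sets (chromosome 16). Probe set 1370200_at measured 3370.15, 3332 and 3454 on the congenic arrays, against 3601, 3554 and 3028 on the S arrays. Probe set 1387878_at measured 2918, 2889.7 and 3055 on the congenic arrays, against 2997, 2982.5 and 2716 on the S arrays. In both probe sets congenic array 3 was the highest congenic array, S arrays 1 and 2 lay close together and S array 3 was the lowest of all 6. The log2 fold changes were 0.00040 (SE 0.066) and 0.028 (SE 0.054), with limma adjusted p of 1.000 and 0.937. The ratio's 95% intervals ran from 0.903 to 1.11 and from 0.938 to 1.11. The sign of probe set 1370200_at changed with quantile normalization (-0.022) and median centring (-0.0016).

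Slc38a3, the system N transporter SNAT3 that loads proximal tubule cells with glutamine, had the largest difference of the 8 probe sets in size. Probe set 1370824_at (chromosome 8) measured 465, 495 and 485 on the congenic arrays, against 629, 641 and 439 on the S arrays. S arrays 1 and 2 lay above all congenic arrays, and S array 3 lay below all of them. The means were 482 ± 15.6 in congenic and 569.9 ± 113 in S kidneys (SD, n = 3 each), a difference of -0.22 ± 0.12 on the log2 scale (estimate ± SE, limma adjusted p = 0.782, 95% interval of the ratio 0.713 to 1.04). Without S array 3 the log2 fold change was -0.39 (unadjusted p = 0.000283, adjusted p = 0.211), and without S array 2 it was -0.12 (adjusted p = 0.938). Without S array 1 the log2 fold change was -0.14, and without each congenic array it ran from -0.24 to -0.19. The size of the value thus rests on single S arrays, while its sign stayed negative. The adjusted p stayed above the threshold with any array left out. The 3′ over 5′ actin ratio, a sign of RNA quality, was 6.15, 6.64 and 7.17 on the congenic arrays, against 9.42, 8.13 and 6.54 on the S arrays. The S arrays with the higher Slc38a3 signals were those with the higher ratios, and the part of this in the result was not tested. The ratio was 6.15 or more on all 6 arrays, so 3′ signal was well above 5′ signal in both groups. It belongs to the array and so concerns the other genes too. S array 1, with the highest ratio, was the highest array for 3 of the 8 probe sets (Fbp1, 1 of Pck2 and 1 of Glud1), which was not tested either.

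For G6pc, the glucose-6-phosphatase that releases free glucose, the annotation lists 4 probe sets under Psme3, Aoc3 and G6pc1 together, so no value can be given to the gene from the annotation. The target sequence of 1 of them, 1386944_a_at, carries an accession that the GRCr8 RefSeq table gives to G6pc1. That probe set measured 1131, 943 and 1003 on the congenic arrays, against 1439.9, 874 and 1088 on the S arrays. The S arrays lay on both sides of the congenic ones, and the log2 fold change was -0.12 (limma adjusted p = 0.891). Of the other 3 probe sets, 1372506_at had no overlap, at 139, 166 and 150.4 on the congenic arrays against 170.2, 185 and 188 on the S arrays, with a log2 fold change of -0.23 (limma adjusted p = 0.746). Which of the 3 listed genes it measures was not determined, and the remaining 2 had log2 fold changes of 0.055 and 0.030.

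The samples were checked against cell type markers, since the genes of this route are used in the proximal tubule and also in liver. All 10 proximal tubule markers, among them the phosphate transporter Slc34a1 and the endocytic receptor Lrp2, passed the filter. Their summed signal was 26950, 26210 and 26400 on the congenic arrays, against 28840, 26640 and 25760 on the S arrays, overlapping between the groups. The brightest markers, Miox, Slc34a1 and Lrp2, weigh most in this sum. Slc5a2 and Slc5a12 were highest on congenic array 1, at 191 and 194, against 87.1 to 144 and 100 to 143 elsewhere. No other marker of this list was highest there. Of the 10 markers 2 had a positive and 8 a negative log2 fold change, with a median of -0.047. In bulk tissue, fewer cells of a type and less RNA per cell cannot be told apart. The sum was highest on S array 1 and lowest on S array 3, the array that was also lowest for 5 of the 8 probe sets. The part of this in the results was not tested. The sum over 6 markers of the thick ascending limb, distal tubule and collecting duct was 16780, 17010 and 16980 on the congenic arrays, against 15620, 15850 and 15670 on the S arrays, which did not overlap. Its members went both ways, with positive log2 fold changes for Umod (0.026), Slc12a1 (0.13), Aqp2 (0.23) and Aqp3 (0.43) and negative ones for the distal tubule markers Slc12a3 (-0.077) and Calb1 (-0.12).

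**Figure D3:**
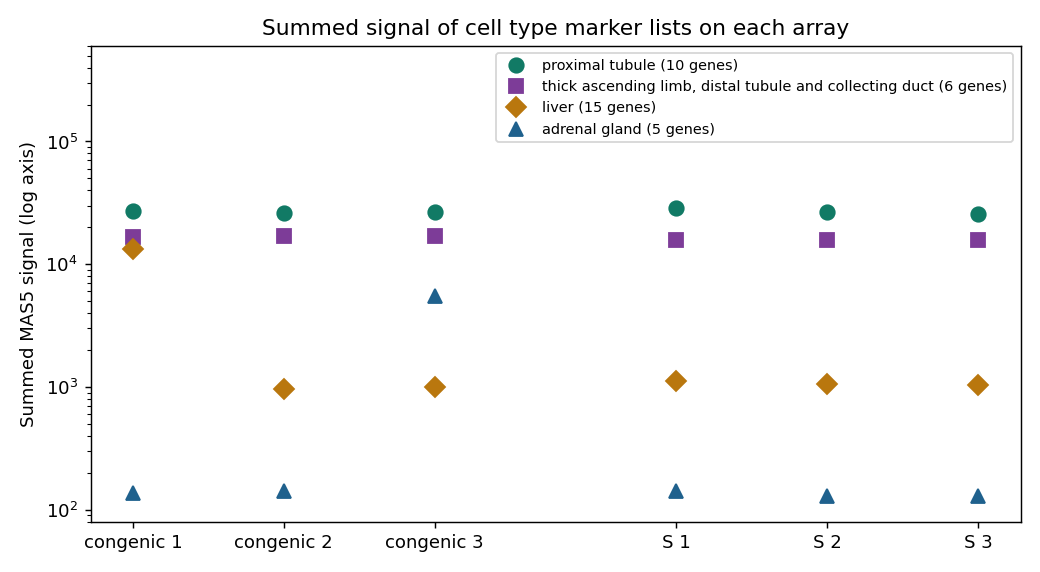
Summed linear MAS5 signal (log axis) of 4 marker lists on each array, congenic left and S right. The liver sum is high on congenic 1 (13190) and the adrenal sum on congenic 3 (5506), while the proximal tubule sum stays between 25760 and 28840.

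Congenic array 1 carried liver transcripts. The summed signal of 15 liver markers was 13190, 962 and 1003 on congenic arrays 1 to 3, against 1110, 1055 and 1047 on the S arrays, and all 15 were highest on congenic array 1. The signal of Alb, which encodes albumin, was 6683 on it, against 19.3 to 56.7 elsewhere. Off that array the markers ranged widely, with 206 to 264 for the fibrinogen chain Fga and 232 to 304 for prothrombin (F2). The hepatocyte enzymes Tat and Otc were at 0.635 to 0.986 and 0.898 to 1.55 off that array and at 18.3 and 16.1 on it, and lay below the filter. None of the 8 probe sets was highest on congenic array 1, and the part of liver RNA in their values was not tested. The difference of congenic array 1 from the mean of the other 5 arrays was 4.05% for Pck1, 3.05% for Pc, -0.714% for Fbp1 and -13.6% for Slc38a3. Without it the log2 fold changes were 0.094 for Pck1, -0.11 for Fbp1 and -0.19 for Slc38a3. Gls2, the liver-type glutaminase, was picked after its values were seen. It was highest on congenic array 1, with 66.7, 36.2 and 30.9 on the congenic arrays against 31.2, 40.8 and 31.3 on the S arrays.

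Congenic array 3 carried adrenal transcripts, with a summed signal of 5 markers of 5506 there, 137 and 141 on congenic arrays 1 and 2, and 128 to 142 on the S arrays. It was the highest of all 6 arrays for Pck1 and for 1 Glud1 probe set, and the lowest for Fbp1 and for 1 Pck2 probe set. Without it the log2 fold changes were 0.067 for Pck1 and -0.069 for Fbp1. With congenic array 2 as the one congenic array, its spread taken to be that of the S arrays, they were 0.037 for Pck1, -0.084 for Fbp1 and -0.18 for Slc38a3.

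The other genes of the pathway were read from 4 lists of 65 genes, of which 57 had a probe set and 51 were tested. None passed limma's adjusted threshold (0 of 51), and 4 of 51, or 7.84%, had an unadjusted p under 0.05, near the 6.61% of all tested probe sets. Of the 51 genes 25 had a positive and 26 a negative log2 fold change, with a median of -0.0032.

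**Figure D4:**
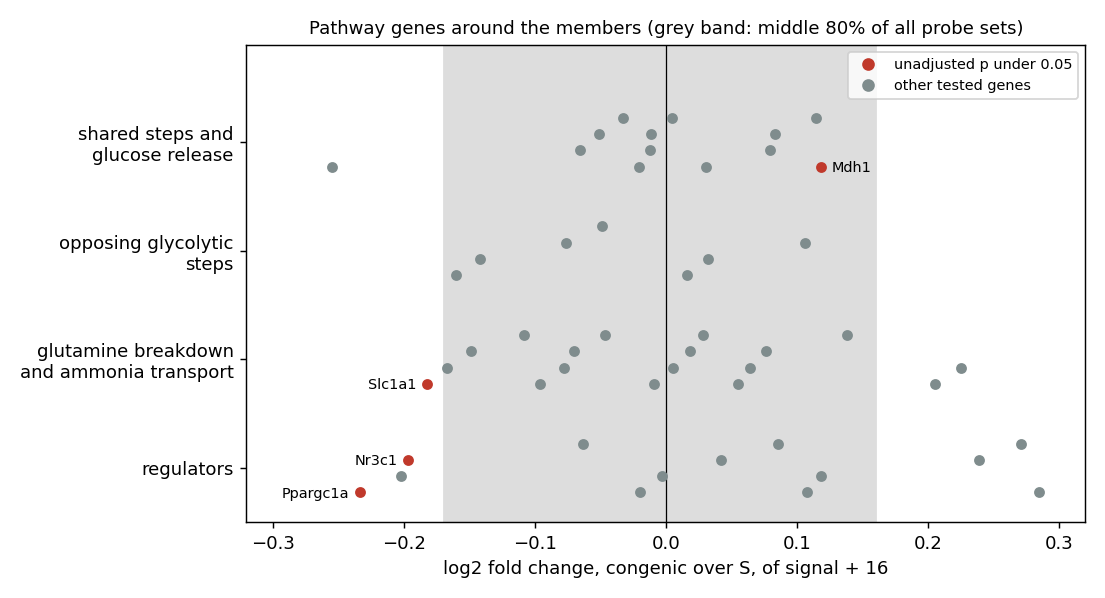
Log2 fold change of signal + 16, congenic over S (horizontal axis), of the 51 tested pathway genes, 1 point per gene at its brightest probe set, in 4 lists; the vertical scatter within a list carries no value. The 4 named points had an unadjusted p under 0.05, and none passed the adjusted threshold.

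Of the steps that gluconeogenesis shares with glycolysis and the genes of glucose release, 6 of 13 tested were higher and 7 lower in congenic kidneys, with a median of -0.011. The 3 with the smallest p were Mdh1, cytosolic malate dehydrogenase, Ldha, which interconverts lactate and pyruvate, and Tpi1, triosephosphate isomerase. Mdh1 measured 4570.2, 4369 and 4233 on the congenic arrays, against 3971, 4099 and 4055 on the S arrays, without overlap. Its log2 fold change was 0.12 ± 0.047 (SE, adjusted p = 0.746 by limma), but its second probe set had a log2 fold change of -0.10 with overlapping groups. Ldha had a log2 fold change of 0.11 and Tpi1 of 0.084, the last being 0.055 without S array 1.

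Of the glycolytic enzymes that work against glucose synthesis, 3 of 7 tested were higher and 4 lower, with a median of -0.049. Pklr, the pyruvate kinase of liver and proximal tubule, had log2 fold changes of -0.14 in its brighter and -0.36 in its dimmer probe set. The dimmer one measured 149.8, 188 and 191 on the congenic arrays, against 257, 237 and 199 on the S arrays, without overlap (limma adjusted p = 0.701). Congenic array 1, which carried liver transcripts, was its lowest array, and the part of this in the result was not tested. Hk1, a hexokinase, had a log2 fold change of -0.076, which was -0.036 without congenic array 1. Pfkfb3, which makes the activator fructose-2,6-bisphosphate, had -0.16. That value rests on single arrays, being -0.022 without congenic array 1, -0.037 without S array 3, -0.089 without S array 2 and -0.35 without S array 1.

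Of the genes of glutamine breakdown and ammonia transport, 9 of 18 tested were higher and 9 lower, with a median of -0.0017. Slc1a1, a glutamate transporter of the proximal tubule brush border, measured 1183, 1326 and 1336 on the congenic arrays, against 1604, 1452 and 1319.6 on the S arrays. S array 3 lay among the congenic values. The log2 fold change was -0.18 ± 0.078 (SE, adjusted p = 0.746 by limma), and -0.11 without S array 1 (unadjusted p = 0.162). That of its second probe set was -0.066. The mitochondrial carriers Slc25a10, for dicarboxylates, and Slc25a22, for glutamate, had log2 fold changes of -0.096 (brighter probe set) and -0.17. The dimmer probe set of Slc25a10 went the other way, at 0.031 with overlapping groups. Without S array 1 the brighter Slc25a10 probe set had -0.050. Slc25a22 had -0.27 without congenic array 1 and -0.096 without congenic array 2. The ammonia channel Rhcg of the collecting duct had -0.078 and the aminotransferase Got2 0.064, both chosen after their values were seen.

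Of the regulators, 7 of 13 tested were higher and 6 lower, with a median of 0.042. Ppargc1a, the coactivator PGC-1α that drives Pck1 and G6pc transcription in fasted liver, measured 457, 474 and 502 on the congenic arrays, against 588, 516 and 590.1 on the S arrays. The groups did not overlap, and the log2 fold change was -0.23 ± 0.073 (SE, adjusted p = 0.701 by limma). A second probe set measured 306, 354 and 341 on the congenic arrays, against 359, 366 and 454 on the S arrays, also without overlap, with a log2 fold change of -0.22 (limma adjusted p = 0.746). A further probe set lay below the filter. Over the other settings the brightest probe set of Ppargc1a stayed between -0.30 and -0.19 on the log2 scale, with an adjusted p of 0.511 or more.

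Nr3c1, the glucocorticoid receptor, measured 496, 462 and 463 on the congenic arrays, against 623, 512 and 508 on the S arrays, without overlap. Its log2 fold change was -0.20 ± 0.085 (SE, adjusted p = 0.746 by limma), and -0.10 without S array 1, its highest array. Foxo1, a transcription factor that insulin signalling restrains, had a log2 fold change of -0.20 with overlapping groups, which was -0.097 without S array 1 and -0.31 without S array 3. Hnf4a, which maintains proximal tubule and hepatocyte gene expression, had -0.0032, and Creb1, which binds the cyclic AMP response element, 0.11. These last 2 were chosen after their values were seen.

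The genes whose signals over the 6 arrays were most like those of Pck1, by Pearson correlation of log2(signal + 16) among 10642 other named genes, were Crtc1, Smlr1, Samd10, Wdr45b and Urah, with r of 0.986, 0.981, 0.980, 0.977 and 0.973. For Slc38a3 they were Mtg1, Ggct, Plin5, Abcb10 and Eif2b1, with r of 0.990, 0.980, 0.979, 0.979 and 0.978. With only 6 arrays that share scaling and RNA pools, 71 genes had r above 0.9 with Pck1 and 119 with Slc38a3. These correlations are descriptions of the arrays and carry no test.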

How the data were processed

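The deposited values were MAS5 signals per the submitters' processing notes, and their range showed an intensity per probe set on a linear scale. Trimmed of 2% of probe sets at each end, every array had a mean of 149.999, which is a scaling to one target that hides any shift shared by most genes. The MAS5 version is not given in the sources used here. Medians ran from 42.9 to 46.0 and Spearman correlations between arrays from 0.969 to 0.977. The number of arrays limits the precision.

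Symbols were those of the platform annotation, brought up to date by gene ID with RefSeq GRCr8: 20826 probe sets had 1 symbol, 20758 of them matched, 436 had several and 9780 none. Log2(signal + 16) was fitted with limma 3.58.1 in R 4.3.3 (eBayes with an intensity trend, Benjamini-Hochberg over all tested probe sets, 2-sided) after leaving out 57 control probe sets and the 12417 probe sets whose mean log2 value lay below the 40th percentile, a signal of about 25 (25.0). Tested on simulated data of 18625 probe sets, the fit recovered 52.5% of 1.5-fold differences with 11 false calls. It recovered 91.5% of 2-fold differences with 14 false calls. Differences under 1.5-fold, the size of every member estimate, were not simulated. Members, lists and alternatives were chosen with earlier results of these data known. Named were all members, the 3 genes of each list with the smallest p, and the 5 genes most like Pck1 and Slc38a3. Alternatives covered pseudocount, filter, scaling, eBayes settings, array weights, a replicate block and left-out arrays.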

Additional observations from a re-analysis of the deposited data

How the results depend on the processing

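With 3 arrays a group, the median half-width of the 95% intervals of the members was 0.15 on the log2 scale. In none of the settings run did a member probe set pass the adjusted threshold (smallest adjusted p = 0.211). The count of members at an unadjusted p under 0.05, 0 as reported, was 1 with quantile normalization (Fbp1), 1 with array weights (Slc38a3) and 0 to 1 with each array left out (Pck1 without S replicate 1, Slc38a3 without S replicate 3). The count of all tested probe sets past the adjusted threshold was 0 to 3 with each array left out (1 without congenic replicate 2, 3 without S replicate 3). The setting with congenic array 2 alone leaves 1 array in a group, so only its log2 fold changes are given. Of 135 member values under the alternatives, 125 kept their direction. Reversed were Glud1 1370200_at with quantile normalization (-0.022), median centring (-0.0016), array weights (-0.021) and congenic array 2 alone (-0.022), and 1387878_at with congenic array 2 alone (-0.0029). With each array left out, these probe sets ran from -0.079 to 0.045 and from -0.017 to 0.053, and Pck2 from -0.018 to 0.13 (1375213_at) and from -0.039 to 0.15 (1376247_at). All 204 values of named pathway genes, each gene at its brightest tested probe set, kept their direction, which their choice by p favours.

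With the replicate number as a block, the count of members past either threshold was 0, and the log2 fold change of Slc38a3 was -0.22 (adjusted p = 0.735). The main fit did not take the numbers as pairs. Cages held 1 rat of each strain, but the sample titles do not say whether same-numbered pools shared cages. Same-numbered arrays correlated at 0.0426, 0.0224 and 0.0165 in their deviations from the group means. Congenic array 2 correlated best with S array 3 (0.0363), and all other combinations of unlike numbers were negative, from -0.0518 to -0.00206.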
